A study of Arabidopsis thaliana with 9 samples.

Results

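The sites described here are stretches of the Arabidopsis chromosome arms where the transcription factor NAC103 gave a peak in living seedlings and on bare DNA with nearly the same summit. A summit is the base at which a peak is highest. On chromosomes 1 to 5, outside the blocks around the centromeres (11.5 to 17.7 Mb, 1.1 to 7.2 Mb, 10.3 to 17.3 Mb, 1.5 to 6.3 Mb and 9 to 16 Mb of chromosomes 1, 2, 3, 4 and 5), chromatin immunoprecipitation (ChIP) gave 8776 regions that were called in 2 or all 3 of its replicates. Of these, 1025 (11.7%) had a ChIP summit within 100 bp of a summit of a DNA affinity purification (DAP) region found in both DAP replicates. They are called coinciding sites. The whole of the 5 nuclear chromosomes held 9501 such ChIP regions. The 1025 sites took in 1022 of the 14344 arm DAP regions (7.12%), since 3 DAP regions each served 2 sites.

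ChIP was made from whole seedlings, 5 days old, of the genotype 35S:NAC103-GFP, in which the strong 35S promoter drives a GFP-tagged NAC103 in most tissues. All these seedlings had 20 µM MG132, a proteasome inhibitor, for 24 h, since by the series design the proteasome otherwise keeps NAC103 scarce, and were fixed with 1% formaldehyde. DAP used a NAC103-Halo fusion on DNA purified from 5-day-old seedlings, with no MG132 and no chromatin. There were 3 ChIP replicates, each with an input, and 2 DAP replicates with 1 input between them, and the labels do not say whether replicates were grown apart, so their spread may be technical. No ChIP from untagged or GFP-only plants was used here, so peaks due to the tag or the antibody cannot be told apart from those of NAC103. The lists held 4208, 14320 and 17095 ChIP peaks and 20792 and 21011 DAP peaks. They give no read totals, so depth is unknown.

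NAC proteins are a large plant family that binds DNA as dimers through a conserved domain at the N terminus. NAC103 is known from the response to unfolded proteins in the endoplasmic reticulum and from the response to DNA damage. A ChIP peak marks chromatin to which the tagged protein was fixed, either directly or through partners, whereas a DAP peak marks naked DNA that the protein holds by itself. Where both summits fall on the same spot, the peak in seedlings stands over DNA that NAC103 also binds unaided.

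The summits of the coinciding sites lay close together. The ChIP summit nearest to a DAP summit was a median of 35 bp away, with quartiles of 13 and 65 bp. It was within 10 bp at 218 sites and on the same base at 12. The DAP summit was on the side of higher coordinates at 513 sites and on the other side at 500, with a median offset of 1 bp, so neither side prevailed. Peak calls and summit positions chose the sites, so these values are a description. The rule fixes the limit of 100 bp but not the shape within it. The arm ChIP regions with a distance of 0 to 19 bp numbered 354, against 135 at 80 to 100 bp. Per 20 bp there were 203 regions within the limit, 79.8 beyond it up to 200 bp, 60.8 over the next 200 bp and 42.4 between 800 and 1000 bp. The number of regions therefore fell steeply over the first 100 bp and slowly afterwards. A single site had a distance of exactly 100 bp, on chromosome 4 at 10849897 to 10850924, with folds of 1.81, 2.16 and 2.82 by ChIP and 5.51 and 5.93 by DAP. Just beyond the limit, 1 bp farther, lay a region beside AT1G67460 and AT1G67470 on chromosome 1, 25271388 to 25272333, with folds of 2.202 and 2.28 by ChIP in replicates 2 and 3 and of 3.73 and 3.62 by DAP. The other region at that distance, on the same chromosome at 29443556 to 29444480, had folds of 1.87, 2.25 and 3.14 by ChIP and 2.88 and 2.77 by DAP. The fold is the authors' enrichment over background at a peak. Folds given for a site belong to its whole merged region, so the summit of a replicate there can lie beyond 100 bp from the DAP summit. The limit cuts through a continuous slope.

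**Figure D1:**
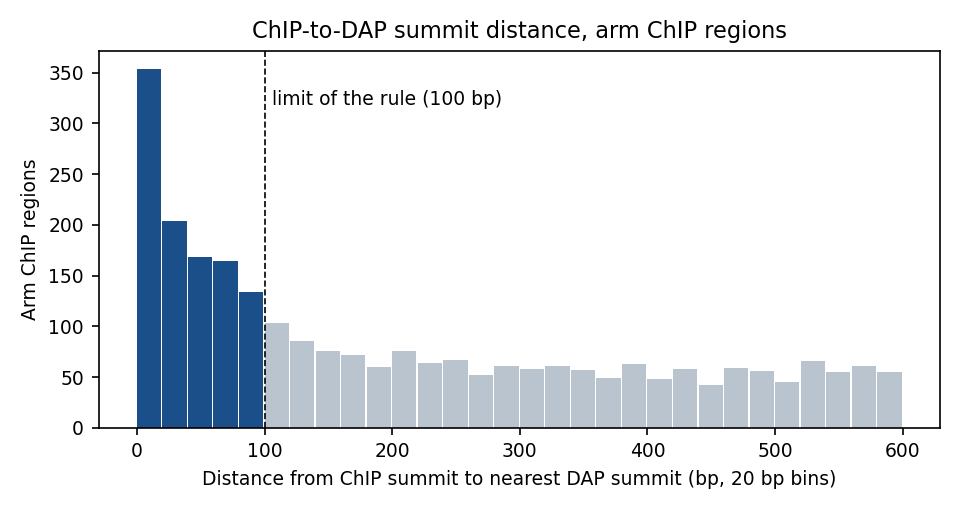
Arm ChIP regions by the distance from their ChIP summit to the nearest summit of a DAP region found in both replicates, in bins of 20 bp, with the coinciding sites in dark blue and the other regions in grey. The first bin holds 354 regions, and the bars are low and nearly level beyond about 200 bp.

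The coincidence rested on 1 ChIP replicate at most of the sites. The summit of 1 replicate alone was within 100 bp of a DAP summit at 565 sites (55.1%, exact 95% interval 52.0% to 58.2%), those of 2 replicates at 356 (34.7%) and those of all 3 at 104 (10.1%, 8.37% to 12.2%). Intervals here and below are exact Clopper-Pearson intervals that cover counting error only, and regions are not replicates. Replicate 1, the shortest list, had a peak at 438 of the 1025 sites, and its summit was near a DAP summit at 272 of these (62.1%). Replicate 2 had a peak at 988 sites and a near summit at 665 (67.3%), and replicate 3 at 1008 and 652 (64.7%). These shares were alike in the 3 lists, but the rule itself raises them, as it asks for a near summit in at least 1 list. Of all ChIP peaks in the arm regions, 8.01%, 7.90% and 7.23% were near a DAP summit in replicates 1, 2 and 3. The number of sites leans on replicates 2 and 3: requiring peaks in both other replicates, 338 sites were found without replicate 2, 342 without replicate 3 and 921 without replicate 1.

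The replicates placed their summits less tightly in ChIP than in DAP. The summits of DAP replicates 1 and 2 lay a median of 8 bp apart in the DAP regions of the coinciding sites, and within 100 bp in 92.4% of these regions. The rule asked for a near summit of only 1 DAP replicate. The nearest summits of ChIP replicates lay 108 bp apart for replicates 1 and 2, 61 bp for 1 and 3, and 115 bp for 2 and 3. Those values were 72, 52 and 82 bp in arm ChIP regions with no DAP peak, which were narrower (median width 716 bp at coinciding sites and 544 bp in regions with no DAP peak). Among regions of 400 to 800 bp they were 90.5, 53 and 115.5 bp at coinciding sites, against 72, 53 and 88 bp with no DAP peak. ChIP summits of replicates at coinciding sites were therefore no closer to each other than elsewhere. At the 104 sites where all 3 ChIP summits were near, the summits of all 5 lists spanned a median of 79 bp. They spanned up to 100 bp at 70 of these sites and up to 50 bp at 31.

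The ChIP replicate that the choice did not use gives a further view of the sites, though the same DAP summits served for choice and lookup. Sites were chosen from 2 ChIP replicates and both DAP replicates, and then looked up in the replicate left out. Of 921 sites chosen without replicate 1, 334 (36.3%, 33.2% to 39.5%) had a peak in replicate 1, against 31.3% of all arm regions of the other 2 replicates. Without replicate 2 it was 301 of 338 sites (89.1%), against 81.5% of all regions, and without replicate 3 it was 325 of 342 (95.03%), against 95.4%. ChIP regions that overlapped a DAP region with summits farther apart had shares of 36.4%, 88.6% and 97.3%, and regions with no DAP peak 29.1%, 78.6% and 95.1%. A peak therefore reappeared about as often with summits together as with summits apart. The position of the peak did differ: where replicate 1 had a peak, its summit was within 100 bp of a DAP summit at 55.1% of the coinciding sites (49.6% to 60.5%, 184 of 334) and at 10.3% of the regions with summits apart (7.63% to 13.6%, 45 of 436). In replicate 2 these shares were 54.5% (164 of 301) and 14.3% (57 of 398), and in replicate 3 they were 57.2% (186 of 325) and 10.1% (41 of 404). In each of the 3 replicates the interval of the coinciding sites lay wholly above that of the regions with summits apart. The 3 comparisons share replicates and the same DAP lists. The 2 classes were split by the other ChIP summits against these same DAP summits. ChIP summits that repeat between replicates would by themselves part the shares in this way. At the coinciding sites 46.7% to 65.3% of them lay within 100 bp between replicates, so the difference is a description and no independent support.

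**Figure D2:**
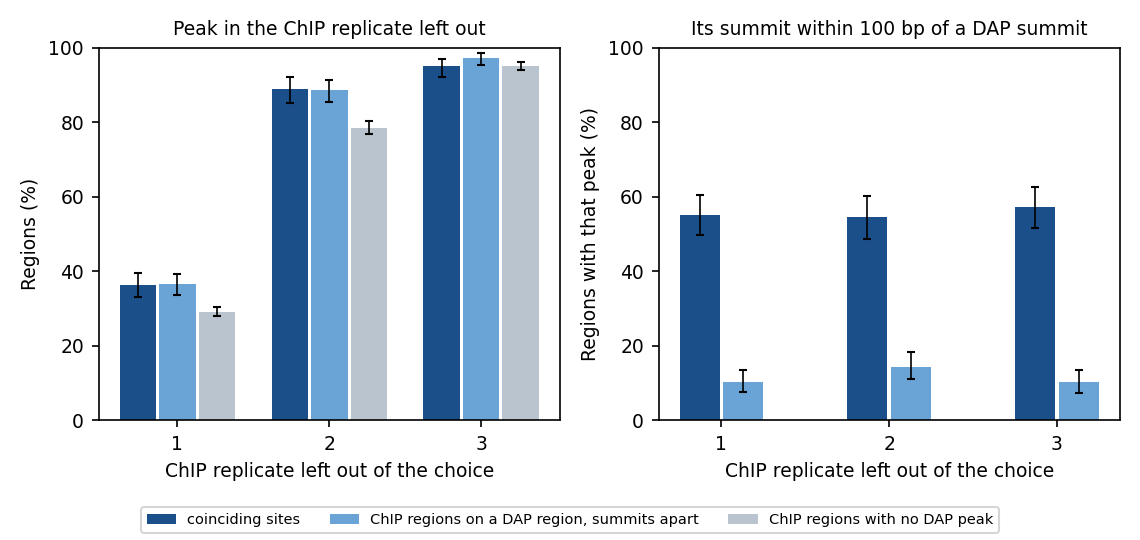
Share of regions chosen from 2 ChIP replicates that had a peak in the third (left panel), and, among those with that peak, the share whose summit in that replicate lay within 100 bp of a DAP summit (right panel), with exact 95% intervals. Coinciding sites stand at 55.1%, 54.5% and 57.2% in the right panel, against 10.3%, 14.3% and 10.1% for regions with summits apart.

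The summit of any 1 ChIP replicate could place a region among the coinciding sites, so a wide region, or one with peaks in more replicates, had more chances to be chosen. The share that coincided was 7.05% among arm ChIP regions of up to 400 bp, 11.4% from over 600 to 800 bp and 23.4% above 1200 bp. It was 15.2% of the regions with a peak in all 3 ChIP replicates and 10.3% of those with a peak in 2. A peak in all 3 was present at 37.5% of the sites, 32.3% of the regions with summits apart and 26.4% of the regions with no DAP peak. Among regions of 400 to 800 bp it was 28.2% (24.2% to 32.5%) of the sites and 25.5% (24.0% to 27.0%) of the regions with no DAP peak, whose intervals overlap. These values follow in part from the choice and are a description of it. By chromosome the share ran from 11.1% to 11.9%, so the sites were spread in proportion to the ChIP regions. When arm DAP regions were ordered by fold into 10 equal groups, 5.37% of the lowest group and 13.2% of the highest coincided. For ChIP regions these shares were 9.91% and 15.9%, with widths that also rose, to 713.5 bp in the highest ChIP group, against 479.5 bp in the lowest.

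Most coinciding sites sat at an end of a protein-coding gene. The summit fell between 1000 bp outside and 500 bp inside a gene end at 824 sites (80.4%, 77.8% to 82.8%). The share was 83.5% (81.3% to 85.5%) for ChIP regions with summits apart, 79.9% (78.9% to 80.9%) for those with no DAP peak and 56.4% (55.4% to 57.3%) for DAP regions with no peak in any ChIP replicate. The share at gene ends was thus near those of the other ChIP regions and above that of the other DAP regions. Over all arm ChIP regions it was 80.5%. With windows of 500 bp outside to 250 bp inside, 58.3% of the coinciding sites were at a gene end. The share of arm sequence that lies in such windows is not given here. The gene table used gives no strand, so a gene's start and its 3′ end are not told apart. Within this total the positions differed from those of ChIP regions with no DAP peak. Summits inside a gene but in no such window made up 12.7% of the coinciding sites (10.7% to 14.9%), 8.10% (7.43% to 8.82%) of the ChIP regions with no DAP peak and 35.4% of the DAP regions with no ChIP peak. Summits outside genes and in no window made up 6.93% of the sites (5.45% to 8.66%), against 12% (11.2% to 12.8%) of the ChIP regions with no DAP peak, and those in a window but outside a gene 29.5% (26.7% to 32.4%), against 33.8% (32.6% to 35.0%).

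The coinciding sites as a whole lay inside genes more often than ChIP regions with no DAP peak, but those with all 3 ChIP summits near did not. The summit was inside a coding gene at 652 sites (63.6%, 60.6% to 66.6%), against 68.6% (65.9% to 71.2%) with summits apart, 54.2% (53.0% to 55.5%) with no DAP peak and 73.5% of DAP regions with no ChIP peak. In regions of 400 to 800 bp it was 60.9% (56.3% to 65.3%) of the sites and 55.7% (54.0% to 57.4%) of the regions with no DAP peak, whose intervals overlap. When the best-ranked ChIP summit stood for each region, the shares among regions of that width were 62.6% (58.0% to 67.0%) and 53.5% (51.7% to 55.2%), whose intervals do not. Both summits were inside a gene at 628 sites, both were outside at 352, and a gene end lay between them at 24 sites with the ChIP summit inside and 21 with the DAP summit inside. The position changed with the number of replicates behind a site. The summit was inside a gene at 43.3% (33.6% to 53.3%) of the 104 sites where all 3 ChIP summits were near, and at 72.4% (68.5% to 76.0%) of the 565 where 1 was. Among these 565, those that rested on replicate 2 were inside genes in 82.0% of cases (76.9% to 86.4%, 272 sites), on replicate 3 in 66.4% (59.8% to 72.5%, 226 sites) and on replicate 1 in 53.7% (41.1% to 66.0%, 67 sites). The library behind a site thus moves with its position. Among regions with a peak in all 3 ChIP replicates, wherever its summits lay, 55.5% (50.3% to 60.5%) of the 384 coinciding sites were inside genes, against 42.2% (39.8% to 44.7%) of the regions with no DAP peak.

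**Figure D3:**
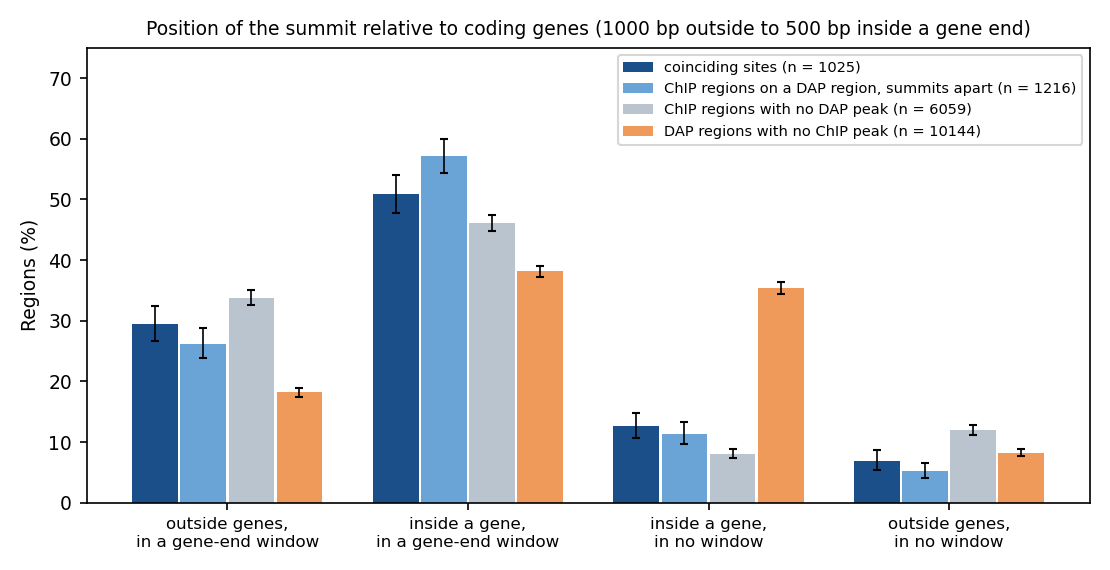
Share of regions by the position of the summit relative to coding genes, for coinciding sites (dark blue), ChIP regions on a DAP region with summits apart (light blue), ChIP regions with no DAP peak (grey) and DAP regions with no ChIP peak (orange), with exact 95% intervals. A gene-end window runs from 1000 bp outside to 500 bp inside a gene end. Of the coinciding sites, 12.7% lie inside a gene in no window, between the 8.10% of ChIP regions with no DAP peak and the 35.4% of DAP regions with no ChIP peak.

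The strength of a site in seedlings followed its strength on naked DNA only loosely. At the coinciding sites the ChIP fold had medians of 1.97, 2.34 and 2.74 in replicates 1, 2 and 3, with highest values of 3.95, 13.8 and 8.10. The DAP fold had medians of 3.32 and 3.34 and highest values of 18.9 and 18.3. Folds from different lists are not on a common scale, so each was turned into its percentile within its list, and the rank of a region in an assay is the mean of its percentiles over replicates. Over the 1025 sites the ChIP and DAP ranks had a Spearman rho of 0.12, and over the 104 sites with all 3 ChIP summits near it was 0.33. The DAP replicates ranked the sites alike (0.96), and the ChIP pairs less so (0.43, 0.48 and 0.38). Set against DAP replicate 1, ChIP replicate 2 had a rho of 0.30, replicate 1 of 0.11 and replicate 3 of -0.05. These correlations describe regions that share libraries, and width moves with the ranks.

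The 12 best sites by the lower of the 2 ranks, among those with a ChIP peak in all 3 replicates, lay at 16 coding genes. SRO3 (AT1G70440), a relative of the stress regulator RCD1, led. Its region on chromosome 1, 26549016 to 26550830, has its summit 8 bp inside the gene, and the ChIP summits lay 40, 41 and 59 bp to the left of the DAP summit. The folds were 3.78, 11.8 and 8.10 in ChIP and 11.9 and 10.7 in DAP, and its ranks were 99.8 in ChIP and 99.5 in DAP, the highest lower rank of all sites. CIPK23 (AT1G30270), a protein kinase that acts with calcium sensors on potassium and nitrate transport, had its site 183 bp outside the gene on chromosome 1, 10658482 to 10659502. There the ChIP summits lay 32, 60 and 64 bp to the right, with folds of 3.87, 13.8 and 5.36 by ChIP and 7.44 and 6.86 by DAP. CBL2, one of the calcium sensors of the family that partners such kinases, had a site on chromosome 5, 22673879 to 22674641, also 183 bp outside the gene. Its 5 summits spanned 22 bp, one of the narrowest spans of all, with folds of 2.72, 10.2 and 4.27 by ChIP and 6.34 and 6.54 by DAP. CIPK23 and CBL2 each had the largest ChIP fold in replicate 2, as did SRO3. How many other genes of these kinase and sensor families had a coinciding site was not counted.

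RHL41, also known as ZAT12, is a zinc finger protein of the response to light and oxidative stress. Its best site, on chromosome 5 at 24101343 to 24102125, was 865 bp outside the gene, with folds of 2.31, 3.50 and 5.14 by ChIP and 7.71 and 7.82 by DAP. A second coinciding site lay nearer, 30 bp outside the same gene at 24102507 to 24103549, with folds of 2.28, 3.81 and 3.97 by ChIP and 4.50 and 4.46 by DAP. At this second site ChIP replicate 3 alone had a near summit. RHL41 thus had 2 coinciding sites on the same side of the gene, with the larger DAP folds at the farther one. PPX2, a protein phosphatase, shared with AT5G55270 a site on chromosome 5, 22418413 to 22421857, at folds of 3.46, 13.1 and 5.17 by ChIP and 5.95 and 6.78 by DAP. ASP2, the cytosolic aspartate aminotransferase, shared with AT5G19540 a site at folds of 2.51, 7.03 and 5.07 by ChIP and 5.60 and 6.17 by DAP. The site at AT1G30660 had the highest fold of replicate 1 among all coinciding sites, with folds of 3.95, 5.77 and 5.84 by ChIP and 6.49 and 6.45 by DAP. The genes at the remaining sites are known here by locus only, apart from KIN17 (AT1G55460). The site between AT2G18190 and AT2G18193, 690 bp from a gene end, had folds of 2.58, 7.10 and 5.44 by ChIP and 6.63 and 6.52 by DAP. At AT5G05735 they were 2.67, 12.3 and 5.09 by ChIP and 5.76 and 5.95 by DAP, and at AT1G19565 they were 2.52, 7.66 and 3.43 by ChIP and 5.70 and 5.73 by DAP. ChIP replicate 2 had its lowest folds of the 12 at AT4G15420 (3.05) and at the site of AT1G55450 with AT1G55460 (2.70), against 3.50 at RHL41 and a median of 2.34 over the coinciding sites. At 10 of the 12 sites all 3 ChIP summits were near a DAP summit. The exceptions were AT4G15420, whose ChIP summits lay 86, 123 and 156 bp to the left, and the site of AT1G55450 with AT1G55460, where they lay on both sides.

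**Figure D4:**
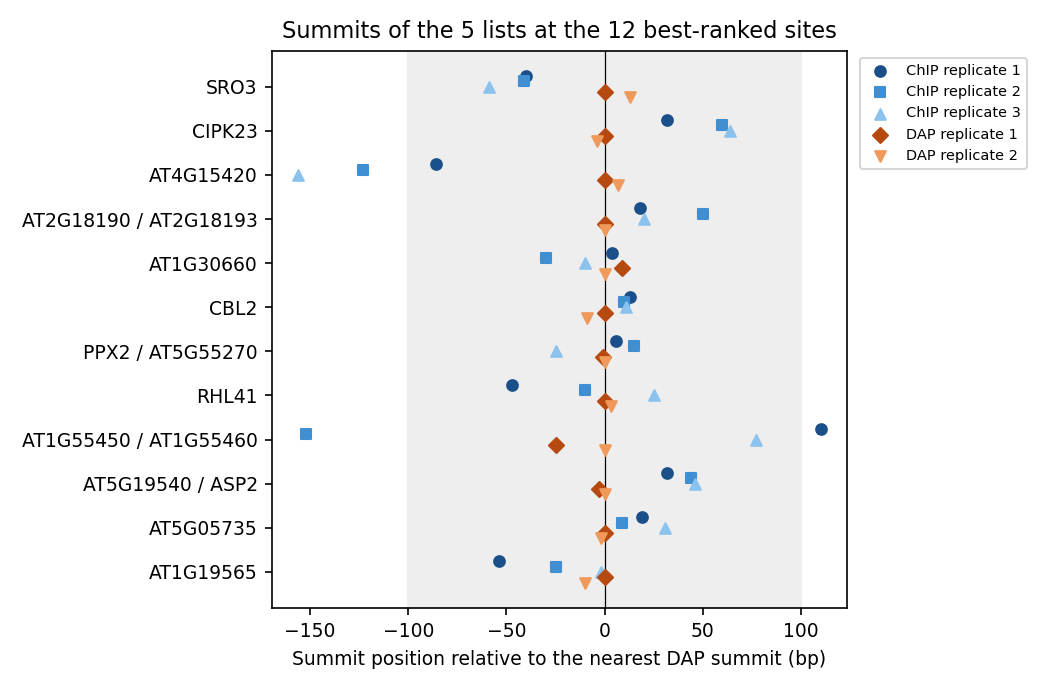
Summit positions of the 3 ChIP and 2 DAP lists at the 12 best-ranked sites, in bp from the DAP summit that lies nearest to a ChIP summit; the grey band marks 100 bp to either side. The DAP summits nearly overlie each other, and all 3 ChIP summits are in the band at 10 of the 12 sites.

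**Figure D5:**
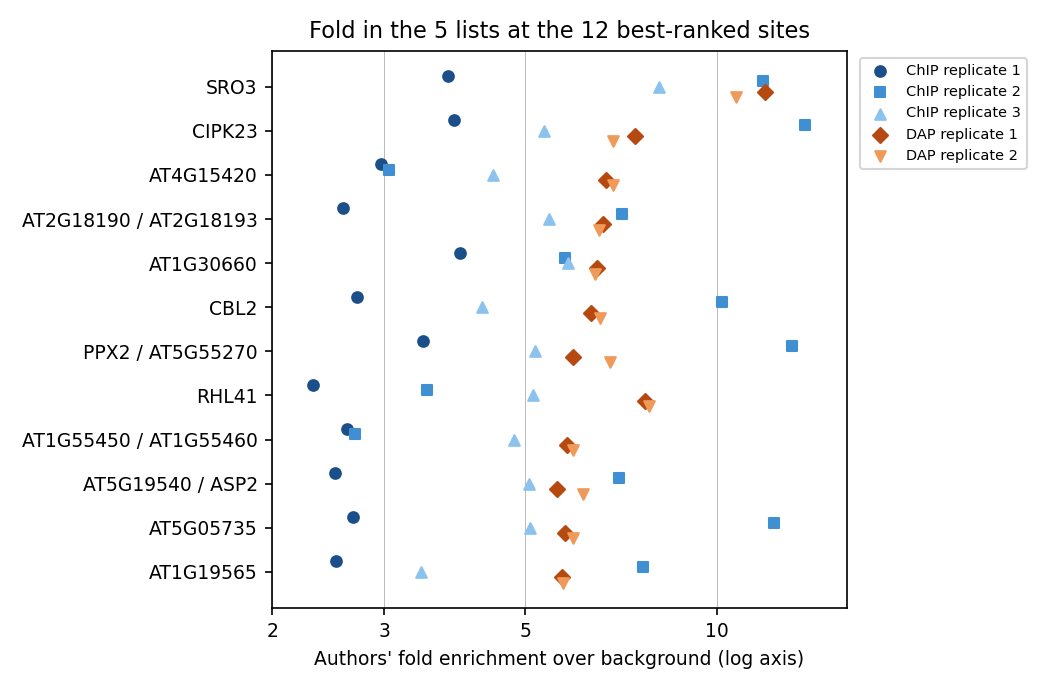
The authors' fold enrichment of the 3 ChIP and 2 DAP lists at the same 12 sites, on a log axis. The DAP replicates lie close together, while ChIP replicate 2 ranges from 2.70 at AT1G55450 and AT1G55460 to 13.8 at CIPK23.

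Some sites ranked high in only one of the assays, by the folds of their whole merged regions. Among the sites with a peak in all 3 ChIP replicates, the largest excess of ChIP rank was at a second site of AT2G18193 on chromosome 2, 7917167 to 7919663, with folds of 2.84, 4.45 and 6.12 by ChIP and 2.07 and 1.93 by DAP. This region is wide, and its ChIP summits were near different DAP summits. The next among these sites were at AT1G58602, at UGT73B2 with UGT73B1 and AT4G34139 (UGT73B genes code for glycosyltransferases of flavonoids), and at AT5G11090. The largest opposite excess among the same sites was at AT5G63440 (folds of 1.81, 1.96 and 2.01 by ChIP and 7.67 and 8.45 by DAP). It was also seen at OZS1, better known as SLAC1, the anion channel that closes stomata. There the ChIP folds were 1.73, 1.78 and 2.40 and the DAP folds 7.01 and 6.05. NRPB5 with PMH2, genes of an RNA polymerase II subunit and of a mitochondrial RNA helicase, and NUDX1 with IDA, the peptide of floral organ abscission, were next. At NUDX1 and IDA the ChIP folds of 1.95, 1.88 and 2.03 stood beside DAP folds of 9.08 and 8.73.

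A coinciding site lay in the gene-end window of 1217 of 27444 coding genes (4.43%), while any arm ChIP region did so for 8853 genes (32.3%). The 27444 genes include those in the blocks around the centromeres, which the rule leaves out. Both shares would be higher over arm genes alone, which was not computed. Of the genes with a ChIP region, 13.7% thus had a coinciding site, and this is the share against which gene groups are read below. A site can count for more than 1 gene: 449 sites lay at 1 gene, 375 at 2 or more and 201 at none. In the gene groups below, the members with a coinciding site are counted among those with a ChIP region. No test was made of any group, and the groups were chosen with results of these data known. Over whole groups, to be set beside 4.43%, a coinciding site was found at 8 of 40 proteasome genes, 4 of 11 genes of the mitochondrial dysfunction response, 8 of 53 heat shock genes and 6 of 30 autophagy genes. It was found at 6 of 25 DNA damage genes, 5 of 26 cell cycle genes, 4 of 57 abscisic acid genes, 9 of 100 NAC genes and 3 of 49 nuclear photosynthesis genes. All of these groups also met ChIP regions more often than the 32.3% of all genes, from 36% for the NAC family to 75% for the proteasome, which is why the genes with a ChIP region are used as the base below. On that base the intervals of the proteasome, heat shock, cell cycle, NAC, abscisic acid and photosynthesis groups take in 13.7%. For these a difference from all genes was not detectable. Those of the mitochondrial dysfunction, autophagy and DNA damage groups lie above 13.7%, on only 7, 15 and 10 genes with a ChIP region.

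The 26S proteasome, the protease that MG132 blocks, had a coinciding site at 8 of its 30 genes with a ChIP region (26.7%, 12.3% to 45.9%). The 8 were the core subunits PBA1, PBC2, PBD1, PBD2 and PBF1, the lid subunit RPN6 (listed as ATS9) and the base subunits RPN1A and RPN1B. PBA1, at a site shared with AT4G31290, had folds of 1.75, 4.13 and 3.09 by ChIP and 5.04 and 5.23 by DAP. Its summit distance of 24 bp rested on replicate 1 alone, as the summits of replicates 2 and 3 lay 146 and 145 bp away. ATS9, at a site shared with AT1G29160, had no peak in ChIP replicate 1. Its folds were 3.45 and 2.74 in replicates 2 and 3, and its DAP folds were 4.27 and 4.52. Of the 8 genes, PBA1 alone had a peak in ChIP replicate 1.

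Some genes of the mitochondrial dysfunction and heat shock groups also had a coinciding site. Of 7 genes of the mitochondrial dysfunction response with a ChIP region, 4 had a coinciding site (57.1%, 18.4% to 90.1%), AOX1A, CRF6, ERF71 and TIM17-1. AOX1A, the alternative oxidase, had a summit distance of 2 bp, folds of 1.95, 4.06 and 3.50 by ChIP and 2.82 and 3.22 by DAP. Its ChIP summit in replicate 3 lay 404 bp away. CRF6, a cytokinin response factor, shared with RRP41 a site whose ChIP folds of 2.74, 3.86 and 4.80 were each above the median of the coinciding sites, with DAP folds of 3.30 and 3.54. The summit of DAP replicate 1 lay 243 bp from that of DAP replicate 2, which alone was near. Heat shock genes had a coinciding site in 8 of 33 cases (24.2%, 11.1% to 42.3%), with the heat shock factors HSFC1, HSFA8 and HSFA7B, the chaperones HSP90.1, HSP91, CLPB4 and HSP23.6-MITO, and the coactivator MBF1C. HSFC1 had folds of 2.22, 2.60 and 4.31 by ChIP and 2.86 and 2.90 by DAP, with the ChIP summit of replicate 2 at 914 bp from the DAP summit. HSP90.1, at a site 3946 bp wide that it shared with AT5G52650, had folds of 1.90, 3.93 and 2.49 by ChIP and 3.71 and 3.48 by DAP. MBF1C, which shared its site with ALDH2C4, had no peak in ChIP replicate 1 and folds of 2.89 and 1.97 in replicates 2 and 3, beside DAP folds of 5.35 and 5.73. Its summits lay 16 bp apart, in a region of 354 bp, among the narrow ones.

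A coinciding site was found at 6 of 10 DNA damage genes with a ChIP region (60%, 26.2% to 87.8%), on small numbers. They were NAC044 and NAC085, NAC factors that arrest the cell cycle after DNA damage, the kinase inhibitor genes SMR4 (AT5G02220) and SMR5 (AT1G07500), PARP1, which attaches ADP-ribose chains at DNA breaks, and RNR2A, of the enzyme that makes deoxyribonucleotides. At SMR5 all 3 ChIP summits were near, with folds of 2.03, 3.01 and 3.48 by ChIP and 3.75 and 3.64 by DAP. At SMR4 they were too, with folds of 2.65, 6.44 and 3.92 by ChIP and 2.40 and 2.33 by DAP. NAC044, at a site shared with AT3G01590, had 5 summits within 39 bp, folds of 1.64, 2.72 and 3.51 by ChIP and 3.13 and 3.88 by DAP. At each of these sites the ChIP fold was lowest in replicate 1. The same holds for the median over all coinciding sites, 1.97, 2.34 and 2.74 in replicates 1, 2 and 3. NAC085, too, had folds of 2.04, 3.62 and 4.12 by ChIP and 4.001 and 3.86 by DAP, but the ChIP summit of replicate 2 alone was near. Of 14 cell cycle genes with a ChIP region, 5 had a coinciding site (35.7%, 12.8% to 64.9%), SMR4 and SMR5 again, the kinase inhibitors ICK1 and KRP6, and MYB3R-4, a regulator of mitotic genes. ICK1, with all 3 ChIP summits near, had folds of 2.19, 4.24 and 5.14 by ChIP and 7.05 and 7.28 by DAP. KRP6 had folds of 1.96, 2.93 and 4.36 by ChIP and 6.20 and 6.37 by DAP, but the ChIP summit of 1 replicate alone was near. These inhibitors of cyclin-dependent kinases had larger DAP folds than SMR4 and SMR5. PARP1, at a site shared with AT2G31335 and emb1381, had no peak in ChIP replicate 1. Its folds were 2.11 and 2.78 in the other 2, and its DAP folds were 5.35 and 4.95. Its near ChIP summit was that of replicate 3 alone.

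Autophagy genes had a coinciding site in 6 of 15 cases (40.0%, 16.3% to 67.7%), with ATG8E, ATG8H, ATG18a, ATG18f (listed as G18F), ATG11 (AT4G30790) and ATG101 (AT5G66930). At G18F, shared with SESA5, the 5 summits spanned 37 bp, and the folds were 2.55, 8.20 and 3.94 in ChIP and 4.17 and 3.78 in DAP. The NAC family itself had 9 of 36 (25%, 12.1% to 42.2%), among them ATAF1, NAC050, NAC052 and NAC053. NAC050 had no peak in ChIP replicate 1, folds of 3.04 and 3.11 in replicates 2 and 3, and DAP folds of 6.45 and 6.70 at a distance of 3 bp. Abscisic acid genes had 4 of 30 (13.3%), the receptor PYL5, the phosphatase HAB1 and the synthesis genes NCED3 and NCED9, which is close to the 13.7% of all genes with a ChIP region. PYL5 had the strongest ChIP signal of these, with folds of 2.75, 3.68 and 4.95, and 2.88 and 2.71 by DAP. NCED9 and HAB1 had the reverse. NCED9 had no peak in ChIP replicate 1, folds of 2.07 and 2.25 in replicates 2 and 3, and DAP folds of 5.68 and 6.54. HAB1, at a site shared with AT1G72790, had folds of 1.85, 2.45 and 3.53 by ChIP and 5.04 and 5.53 by DAP. The near ChIP summit was that of replicate 3 alone at NCED9 and of replicate 1 alone at HAB1. Nuclear photosynthesis genes had 3 of 23 (13.0%), PSAD-1, PSAF and PSAG, subunits of photosystem I. PSAG, at a site shared with AT1G55660, AT1G55673 and AT1G55675, had no peak in ChIP replicate 1. Its folds were 3.08 and 1.86 in replicates 2 and 3, beside DAP folds of 10.8 and 11.1. Replicate 2 alone had a near summit there.

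No coinciding site was found in the group of folding and stress response of the endoplasmic reticulum, the process NAC103 is best known for. None of the 19 genes of this group with a ChIP region had one, where a count of 0 allows a share of up to 15.8%, so a difference from the 13.7% of all genes was not detectable. Leaf senescence genes had 0 of 10, which allows 30.0%, and genes of degradation from the endoplasmic reticulum had 0 of 4. These last groups are too small for a count of 0 to be read.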

How the data were processed

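NAC103 peaks were used from 3 ChIP and 2 DAP replicates. BWA, MACS2 and the build TAIR10 are named, without versions, per the submitters' processing notes. The authors deposited 1 list of narrow peaks per replicate, and per the labels each ChIP replicate had its input. For each peak the deposited lists give a score, a fold enrichment (ratio), −log10 p and q, and a summit offset. The lowest −log10 q was 1.30. Inputs were not analysed here as separate lists.

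Peaks of an assay that overlapped by 1 bp were merged, and the rule in the opening was applied. Folds were used to describe and rank peaks within a list. Coordinates are 1-based on TAIR10. Gene names and gene ends came from the RefSeq gene table of TAIR10.1, which has no strand or exons, so none of its coordinates are printed. Gene groups were matched by symbol or synonym. The members and groups were chosen with earlier results of these data known. Named sites were the 12 with the highest lower rank, 4 with each rank excess (both among sites with a ChIP peak in all 3 replicates), up to 4 per gene group and those at the limit, and for the rest names only are given. Shares have exact Clopper-Pearson intervals (95%, scipy 1.17.1, Python 3.11.15), and a count of 0 is given with 3 counts as its limit. No test across samples was made. The sequence words planned for the sites were not analysed here, as no genome sequence was used. On 3000 simulated regions with 220 sites, 0 were wrongly placed.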

Additional observations from a re-analysis of the deposited data

How the results depend on the processing

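The number of coinciding sites and their share of ChIP regions depended on the limits. Against 1025 sites (11.7%), a limit of 50 bp gave 650 (7.41%) and a limit of 200 bp 1424 (16.2%). A −log10 q of at least 10 left 169 sites (17.32% of 976 regions), as many highest-fold peaks from each list as the shortest holds 141 (4.87% of 2894), a ChIP peak in all 3 replicates 384 (15.2%), and only the best-ranked summits 657 (7.49%). Leaving out 1 replicate gave 338 to 1063 sites and shares of 10.7% to 13.0%. Of the alternatives chosen after seeing the data, near summits in at least 2 ChIP replicates left 460 sites (5.24%), in all 3 left 104 (1.19%), and regions of 400 to 800 bp had a share of 10.4%. The best-ranked summit as the place of a site inside genes was also chosen after seeing the data. Each of these changes which peaks or distances count, and no further cause was tested. The share at gene ends, 80.4%, was 82.8% at a −log10 q of at least 10 and 58.3% with windows of 500 bp outside to 250 bp inside, and 77.9% to 82.2% under the others, among them the best-ranked summit (79.9%) and regions of 400 to 800 bp (79.7%), both chosen after seeing the data. The rho between ChIP and DAP ranks was 0.12 both with the highest fold in a region and with the fold of the nearest peak. Of the 12 best sites, 10 coincided at 50 bp, and 11 or 12 did with any 1 replicate left out. No paired analysis was possible because no test across samples was made. Depth is unknown, and intervals leave out variation between replicates.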

Other observations

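Away from coding gene ends, 201 coinciding sites lay in no gene-end window, 130 inside a gene and 71 outside. One of them, on chromosome 1 at 3730486 to 3731620, had the tightest agreement of all 5 lists, with summits within 20 bp, folds of 2.32, 6.04 and 3.52 by ChIP and 5.87 and 5.61 by DAP. It lay 1954 bp from the nearest coding gene end and within 1000 bp of the noncoding gene AT1G11150. The next, on chromosome 3 at 4438939 to 4439370, had summits within 21 bp, folds of 2.38, 3.48 and 3.74 by ChIP and 3.36 and 3.38 by DAP, at 1910 bp from a gene end. A further site with summits within 21 bp, on chromosome 4 at 7916081 to 7916658, lay inside a gene at 1441 bp from its nearest end. The next sites, with summits within 22 bp, were at gene ends, CBL2 at 183 bp and AT2G03200 at 372 bp, and 75% of the 104 sites with all 3 ChIP summits near lay in a gene-end window. These sites were picked out after their values were seen.

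Noncoding genes lay within 1000 bp of 172 sites (16.8%), long noncoding RNA genes at 99, tRNA genes at 16 and microRNA genes at 8. The gene table holds 10455 noncoding genes on these chromosomes, and the same share was not computed for other arm regions. Whether these counts differ from those elsewhere is therefore unknown. Of the microRNA genes, MIR156g, of the family that delays the change from juvenile to adult growth, had the site with the closest summits, 2 bp apart. That site lay 513 bp from MIR156g and also at the coding gene AT2G19420. Its folds were 5.01 and 3.01 by ChIP in replicates 2 and 3 and 7.01 and 7.56 by DAP. The site 581 bp from MIR398c, whose family targets copper superoxide dismutases, also lay at the coding genes AT5G14550, AT5G14560 and NRT2.7. It had ChIP folds of 2.27 and 3.24 in the same replicates and DAP folds of 3.92 and 3.72. The site 888 bp from MIR169e, also at the coding gene AT1G53690, had folds of 1.91 by ChIP replicate 1 and 2.05 by replicate 2, against 10.5 and 9.79 by DAP. At the sites near MIR398c and MIR169e the summit of 1 ChIP replicate alone was near. Only MIR169e and MIR8176 of the 8 had a peak in ChIP replicate 1.

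Coinciding sites came in pairs at 22 genes. Besides RHL41, AT3G10930 had a site shared with MSD1, the mitochondrial manganese superoxide dismutase (ChIP folds of 2.32, 4.53 and 3.53), and another shared with LSF2 (2.31, 4.40 and 4.85). Both shared 1 DAP region, whose folds were 5.35 and 4.73. At the site shared with LSF2, DAP replicate 1 alone had a near summit, as that of DAP replicate 2 lay 682 bp away. BPS1 had a site shared with AT1G01540, with ChIP folds of 1.87, 2.52 and 4.90, and another with 1.94, 2.23 and 5.19. Replicate 3 was the highest at both, as in the medians over all coinciding sites. AT5G65660 had DAP folds of 5.22 and 5.43 at one site and 7.26 and 7.70 at the other, with no peak in ChIP replicate 1 at either.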
